A study of Mus musculus with 9 samples.

Results

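The genes described here make the oxidative phosphorylation machinery of the mitochondrial inner membrane. They were chosen by name and protein-coding annotation: every symbol that starts with *Nduf*, *Uqcr*, *Cox4* to *Cox8*, *Atp5*, *mt-Nd*, *mt-Co*, *mt-Cytb* or *mt-Atp*, together with *Sdha*, *Sdhb*, *Sdhc* and *Sdhd*. This rule found 111 of the 55416 counted genes. Of these, 89 are nuclear genes for subunits, 13 are the protein genes of the mitochondrial DNA, 8 are complex I assembly factors (*Ndufaf1* to *Ndufaf8*), and 1, *Atp5if1*, is the inhibitor of the ATP synthase. The level used throughout is CPM, the reads of a gene relative to a library total that was scaled by the trimmed mean of M values (TMM). A gene was called changed when its Benjamini-Hochberg adjusted p was below 0.05 over all 14903 genes tested.

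The libraries come from whole lenses of mouse embryos at E16.5 (embryonic age), 1 pair of lenses each. The groups are 5 wildtype and 4 *Atf4* null libraries, littermates from crosses of heterozygous B6;129-*Atf4*tm1Tow mice on a mixed C57Bl/6/129 background. ATF4 is a transcription factor of the integrated stress response, and its allele is absent from every cell of the null embryo, not from the lens alone. Both sexes were used, and the deposited labels do not say which embryos shared a litter.

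Oxidative phosphorylation passes electrons from NADH through complex I, or from succinate through complex II, to complex III, cytochrome c and complex IV, where oxygen is reduced. Complexes I, III and IV pump protons, and complex V, the ATP synthase, uses the proton gradient to make ATP. Complex II is built from nuclear genes alone, whereas the other complexes join nuclear subunits with subunits encoded in mitochondrial DNA. In the lens, mitochondria are kept in the epithelium and in young fiber cells, and are removed as fibers mature.

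The libraries held between 7440807 and 8906996 reads on genes, from count files named for a single sequencing lane, so reads of other lanes may not be included. *Atf4* itself was at 119 to 156 CPM in wildtype and at 0.582 to 10.6 CPM in *Atf4* null lenses. Wildtype library 5 stood apart, because 16 skeletal muscle genes summed to 10429 CPM there and to 88.4 to 129 CPM in the other wildtype libraries, and 13 connective tissue genes to 17210 against 1004 to 1262 CPM. Its 16 lens fiber genes summed to 80277 CPM, against 138148 to 147953 CPM in the other wildtype libraries. In the *Atf4* null libraries the same fiber sum was 58482, 90117, 86976 and 138846 CPM, and all 15 of the fiber genes that could be tested had a lower fitted level, 5 of them called. Results that rest on wildtype library 5 are therefore given with and without it.

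Most members of the machinery had a lower fitted level in the *Atf4* null lens, and few of them passed the test. Of the 100 members with enough reads to test, 76 had a lower and 24 a higher fitted level, and their median log2 fold change was -0.22, against 0.001 over all genes tested. The 11 untested members were *mt-Nd4l*, *mt-Co3* and *mt-Atp8*, 6 complex IV genes of low level, *Ndufb11b* and a second annotated locus of *Atp5po*, the last 2 with no read in any library. Of the 100 tested members, 9 fell: the complex III subunit gene *Uqcrh*, the ATP synthase genes *Atp5mj*, *Atp5f1b* and *Atp5if1*, the nuclear complex I genes *Ndufc2*, *Ndufv3* and *Ndufa1*, and the mitochondrial complex I genes *mt-Nd2* and *mt-Nd1*. None was called higher.

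These 9 are 9% of the tested members, and 3.67% of all genes tested were called lower. For higher calls the share over all genes was 2.23%. At an unadjusted p below 0.05, 26 members were lower and 2 higher with edgeR, against 10.2% and 9.31% of all genes. DESeq2 called 13 lower and 1 higher (5.66% and 3.81% of all genes), and the edgeR exact test 9 lower and none higher (4.41% and 2.74%). With scaling by library size 5 members were called lower and 2 higher, and with 1 library left out the count of lower calls ran from 4 (without null library 2 or 3) to 14 (without wildtype library 5). In 14 members every *Atf4* null library lay below every wildtype library, and in 2, *mt-Nd6* and *Ndufaf4*, every null library lay above. Over all genes tested those shares were 5.58% and 4.65%. After correction for transcript length the calls left were *Uqcrh* and *Atp5mj*, after correction for GC content also *Ndufc2*. As these are bulk samples, fewer cells that carry many mitochondria and fewer transcripts per cell cannot be told apart.

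**Figure D1:**
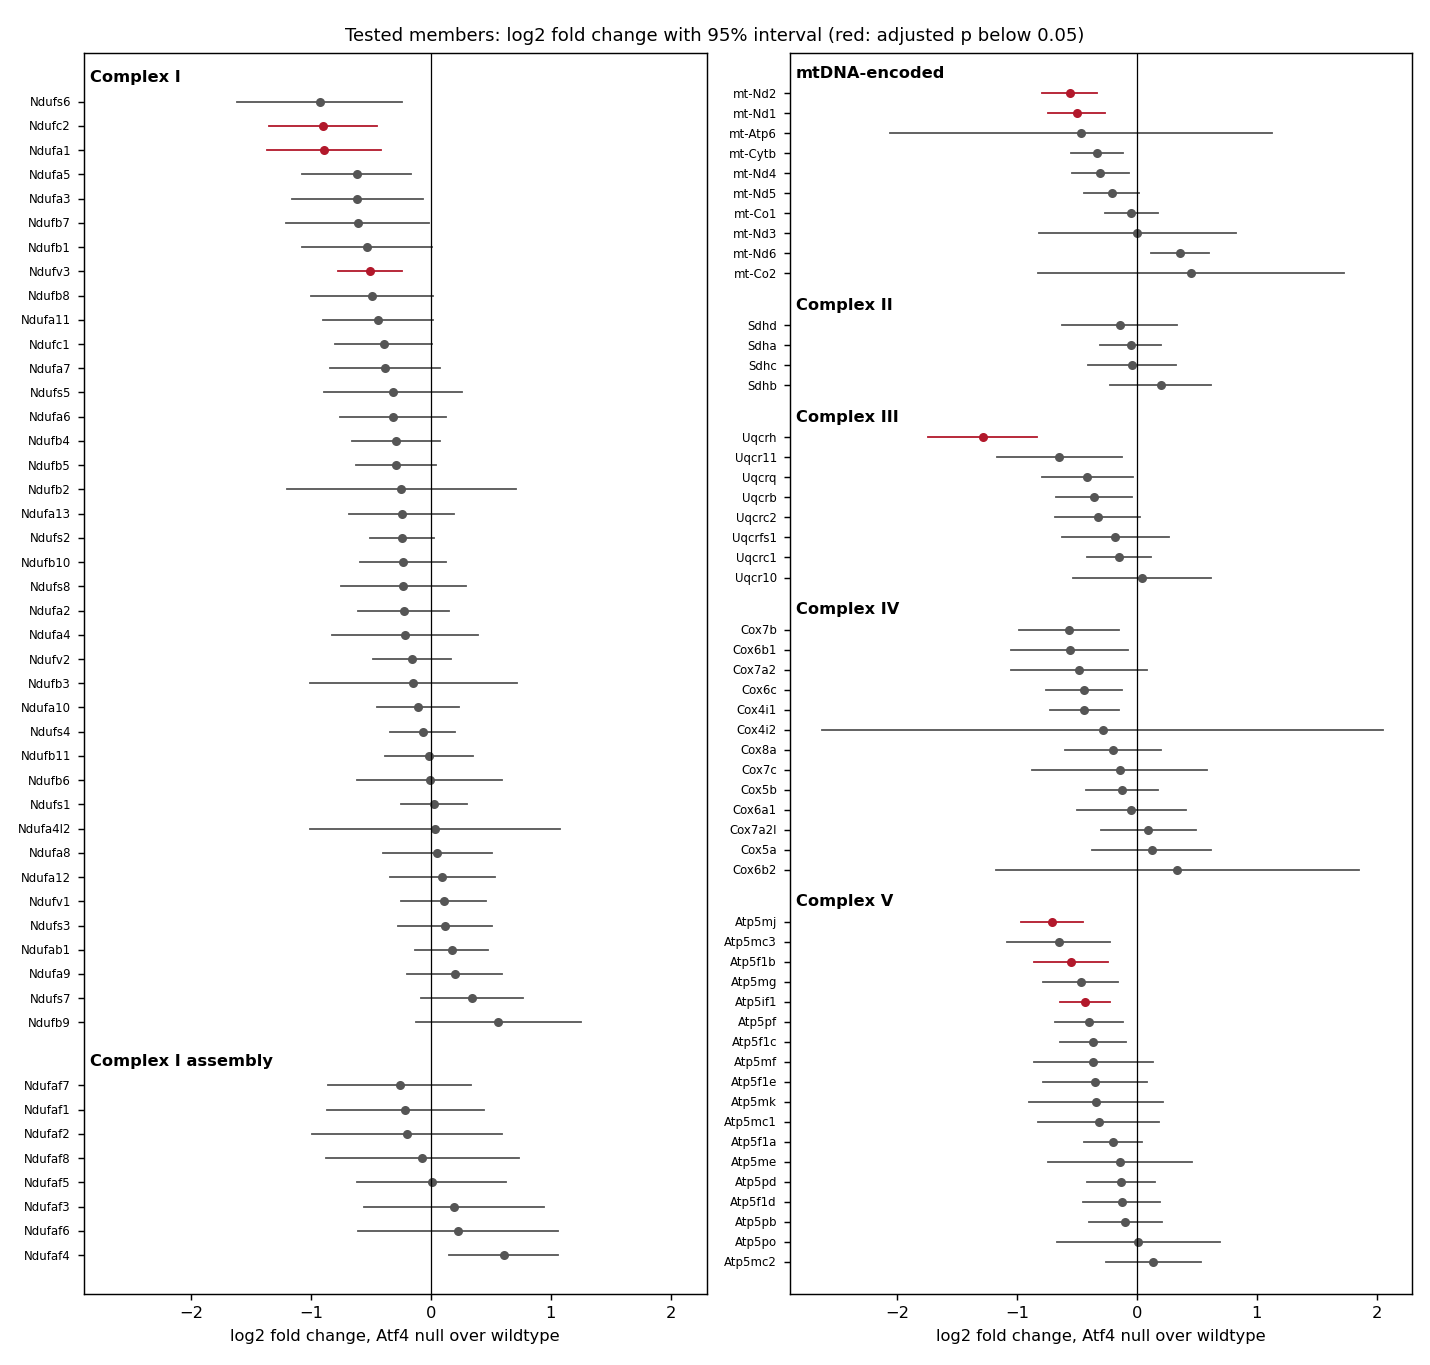
Fitted log2 fold change (*Atf4* null over wildtype) of the 100 tested members on the horizontal axis, grouped by complex, with the 95% interval of each fit; red marks an adjusted p below 0.05. Of all members drawn, 76 lie left of 0 and the 9 red ones are all lower; complex II and the assembly factors lie around 0.

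The levels were also summed over the subunits of each complex. The nuclear subunits together gave 5418, 5098, 5338, 5213 and 4138 CPM in wildtype libraries 1 to 5, and 3710, 4141, 4133 and 4831 CPM in *Atf4* null libraries 1 to 4. The null mean was 83.4% of the wildtype mean (4204 ± 464 against 5041 ± 519 CPM, SD), and 79.8% without wildtype library 5. The groups overlapped through wildtype library 5 alone; the 4 other wildtype libraries were all above the 4 null libraries.

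By complex, the null mean was 87.4% of wildtype for nuclear complex I, 102% for complex II, 80.0% for complex III, 81.4% for complex IV and 79.3% for complex V. Without wildtype library 5 the same shares were 83.9%, 96.3%, 75.8%, 77.6% and 76.1%, so that complex II turned from above to below wildtype, as it did without null library 4 (98.1%). Complex V, the most abundant of these sums, ran from 1436 to 1831 CPM in null and from 1676 to 2193 CPM in wildtype libraries. Without wildtype library 5, the sums of complexes III, IV and V did not overlap between genotypes, and those of complexes I and II still did. No test was run on these sums.

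**Figure D2:**
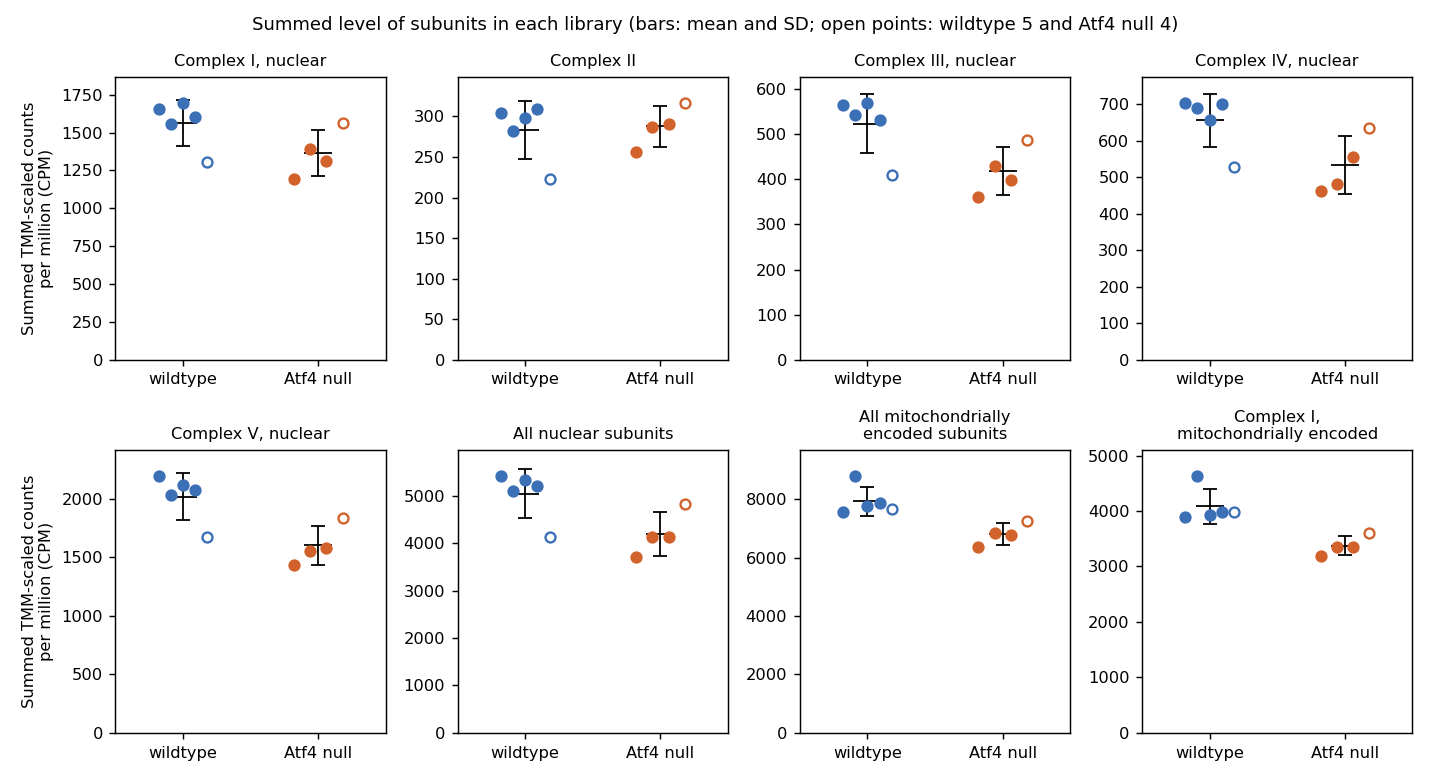
Summed TMM-scaled CPM (vertical axes, from 0) of the subunits of each complex in every library, with mean and SD; open points mark wildtype library 5 and *Atf4* null library 4. Null means lie below wildtype means in every panel other than complex II, where they are 288 and 283 CPM (299 in wildtype without library 5), and the mitochondrially encoded sums do not overlap.

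The nuclear sums were read beside the lens fiber genes and the markers of other cell types. Null library 1 had the lowest fiber sum (58482 CPM) and the lowest nuclear subunit sum (3710 CPM), and null library 4 had the highest of both among null libraries (138846 and 4831 CPM). Wildtype library 5 lay close to null libraries 2 and 3 on both measures. Wildtype library 5 was the lowest of the wildtype libraries for 54 of the 90 nuclear members tested, and null library 4 was the highest null library for 48. At a fiber sum like that of wildtype library 2 (138148 CPM), null library 4 had 4831 CPM of nuclear subunits against 5098 CPM. Across null libraries 1 to 4 retina and neuron genes summed to 1193, 643, 714 and 372 CPM and lens epithelium genes to 2338, 1854, 1819 and 1201 CPM, highest in library 1 and lowest in library 4. Not all members of the epithelium list followed that order. *Mki67* was at 769.1, 459.6, 490.7 and 223.8 CPM and *Ccnd1* at 674.5, 410.2, 407.5 and 306.3 CPM. *Cdh1* was at 5.58, 20.76, 16.45 and 12.96 CPM and *Foxe3* at 23.12, 41.27, 31.91 and 7.13 CPM. Blood cell genes were at 183.2, 249, 208.6 and 256.2 CPM, lowest in library 1 and highest in library 4. The part of fiber, retina, epithelium and blood content in the nuclear sums was not tested.

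**Figure D3:**
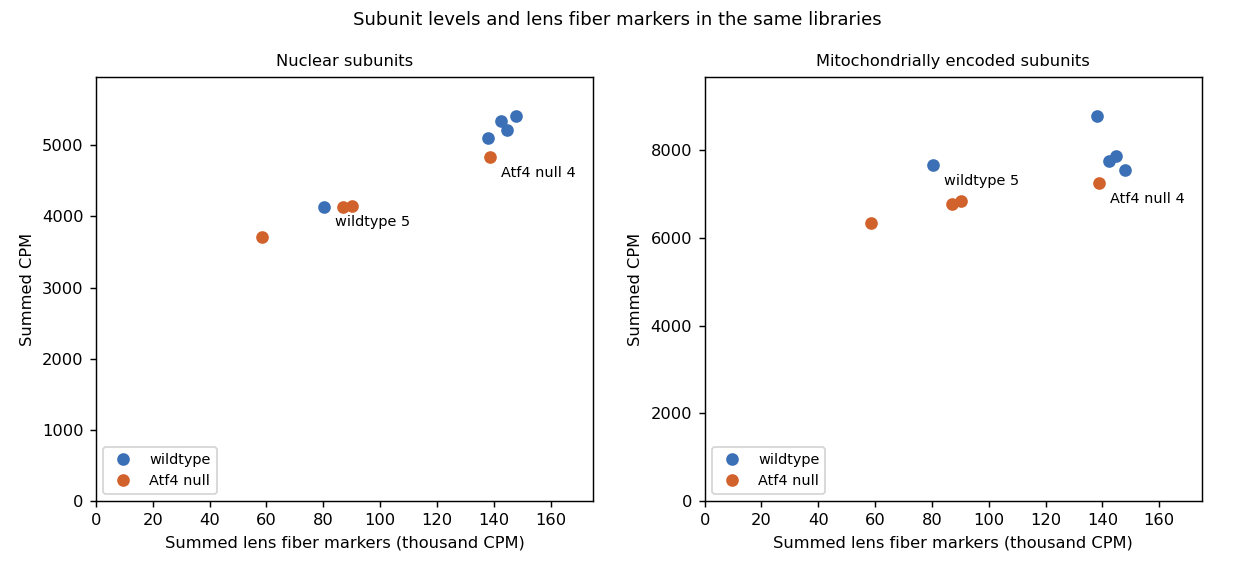
Summed CPM of nuclear (left) and mitochondrially encoded (right) subunits on the vertical axis against the summed CPM of 16 lens fiber genes on the horizontal axis, 1 point a library. Wildtype library 5 lies among the null libraries on the left (4138 CPM) and above them on the right (7656 CPM).

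In complex III, *Uqcrh* was the member with the largest fall of the whole set. It encodes the acidic hinge subunit that sits near cytochrome c1 (ENSMUSG00000063882, in GRCm39 at chr4:115923314-115932296, minus strand). It was at 37.0, 43.9, 31.7, 39.5 and 28.9 CPM in wildtype libraries and at 13.2, 17.0, 18.2 and 10.8 CPM in *Atf4* null libraries. The groups did not overlap, and wildtype library 5 and null library 4 kept to their genotypes. The log2 fold change was -1.29 ± 0.21 (SE; edgeR quasi-likelihood test, adjusted p = 0.0029), with an exact two-sided permutation p of 0.0079, the smallest that 4 against 5 libraries can give. The call was made in all 19 alternative settings.

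The other 7 nuclear complex III genes were lower in 6 cases and not called. The core protein gene *Uqcrc1* had 144 ± 18.9 CPM in wildtype and 129 ± 13.6 CPM in null libraries, and *Uqcrb* had 66.0 ± 10.6 and 51.5 ± 5.17 CPM. For *Uqcrb* 74.1% of its 31-base stretches also occur elsewhere in the genome, so that reads from it may have been left uncounted. *Uqcr10* was the one with a higher fitted level, at a log2 fold change of 0.04 (95% interval -0.53 to 0.62).

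In complex V, 15 of the 17 tested nuclear subunit genes had a lower fitted level, and 2 were called. The small membrane subunit gene *Atp5mj* (ENSMUSG00000021290, chr12:111925397-111933510, minus strand) was at 91.3, 100.3, 99.7, 86.7 and 76.7 CPM in wildtype libraries. In *Atf4* null libraries it was at 52.2, 55.2, 56.3 and 59.1 CPM. The null values were all below the wildtype values and close together, with a log2 fold change of -0.71 ± 0.12 (adjusted p = 0.0035, edgeR), and the call was made in all 19 alternative settings.

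*Atp5f1b* (ENSMUSG00000025393, chr10:127919132-127926261, plus strand) encodes the catalytic beta subunit and had the highest level per transcript length among the nuclear members, at 295 CPM per kilobase in wildtype. Its wildtype libraries held 634, 581, 609, 586 and 429 CPM and its null libraries 313, 372, 412 and 451 CPM. Null library 4 exceeded wildtype library 5, so the groups overlapped. The log2 fold change was -0.55 ± 0.14 (adjusted p = 0.038, edgeR). The call was lost when wildtype library 1, 2, 3 or 4 or null library 1, 2 or 3 was left out, with adjusted p up to 0.12.

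*Atp5f1a*, the gene of the alpha subunit that alternates with beta in the same catalytic ring, had 515 ± 49.8 CPM in wildtype and 447 ± 30.2 CPM in null libraries. Its log2 fold change of -0.20 (95% interval -0.44 to 0.04) did not pass the test (adjusted p = 0.35, edgeR). The difference between the changes of *Atp5f1a* and *Atp5f1b* was not tested. *Atp5mc2*, for the membrane ring, had the highest fitted change of the complex, 0.14 (95% interval -0.26 to 0.54), and 88.7% of its stretches have copies elsewhere.

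The inhibitor gene *Atp5if1* (ENSMUSG00000054428, chr4:132257215-132262823, minus strand) encodes the protein that blocks ATP hydrolysis by a synthase running in reverse. It was at 142, 157, 140, 150 and 142 CPM in wildtype and at 112, 101, 111 and 109 CPM in null libraries. Wildtype library 5 was inside the range of the other wildtype libraries. The log2 fold change was -0.43 ± 0.10 (adjusted p = 0.019, edgeR), and the call was lost without wildtype library 2 or 4 or null library 2 or 3, with adjusted p up to 0.072. It was also lost with scaling by library size (-0.31, adjusted p = 0.099), without a filter on low counts (adjusted p = 0.050) and with the replicate block (adjusted p = 0.062), and over all alternatives the change ran from -0.45 to -0.21 with adjusted p up to 0.38. Of its exon bases, 59.6% overlap another counted gene on the opposite strand, *Gm12999*, and the strand setting of the counting was not stated.

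Complex I is the largest complex, and 29 of its 39 tested nuclear subunit genes had a lower fitted level, 3 of them called. These are counted by name and include *Ndufa4*, which is now placed in complex IV. *Ndufc2*, for a small membrane arm subunit (ENSMUSG00000030647, chr7:97049210-97057022, plus strand), was at 45.8, 38.4, 49.3, 34.1 and 36.2 CPM in wildtype. It was at 21.2, 28.3, 23.4 and 14.3 CPM in *Atf4* null libraries, without overlap. Its log2 fold change was -0.90 ± 0.21 (adjusted p = 0.022, edgeR), and the call was lost without wildtype library 1 or 3 or null library 3 (adjusted p up to 0.062) and with scaling by library size (adjusted p = 0.060).

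*Ndufv3*, which encodes a subunit of the NADH-binding module (ENSMUSG00000024038, chr17:31739052-31751735, plus strand), was at 80.5, 86.8, 71.6, 90.1 and 73.1 CPM in wildtype. In null libraries it was at 49.8, 57.2, 58.8 and 60.1 CPM, all lower. The log2 fold change was -0.51 ± 0.12 (adjusted p = 0.026, edgeR). Leaving out wildtype library 1, 2 or 4 or null library 1, 2 or 3 ended the call (adjusted p up to 0.079), as did scaling by library size (adjusted p = 0.055).

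The X-linked *Ndufa1* (ENSMUSG00000016427, chrX:36451241-36454849, minus strand), for a small membrane subunit, was at 45.5, 45.7, 56.3, 42.8 and 25.1 CPM in wildtype and 18.1, 24.8, 25.9 and 23.9 CPM in null libraries. Wildtype library 5 was level with the null libraries. The log2 fold change was -0.89 ± 0.22 (adjusted p = 0.030, edgeR). The call was lost whenever a library other than wildtype library 5 was left out, with adjusted p up to 0.080.

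Of the complex I genes that were not called, *Ndufs6* had the lowest fitted change. It encodes a zinc-binding subunit and was at 13.6, 13.5, 16.1, 13.2 and 13.1 CPM in wildtype and 7.97, 10.7, 3.18 and 7.28 CPM in null libraries. The groups did not overlap, the null libraries spread by an SD of 3.10 around a mean of 7.28 CPM, and the adjusted p was 0.12 (edgeR). *Ndufb9* had the highest fitted change among nuclear subunits, 0.56 (95% interval -0.13 to 1.25), at 5.72 ± 1.27 CPM in wildtype and 8.46 ± 1.66 CPM in null libraries. *Ndufa6*, with *Ndufa1* 1 of the 2 most abundant nuclear complex I genes per length, ran from 43.3 to 70.4 CPM in wildtype and from 37.7 to 71.3 CPM in null libraries.

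**Figure D4:**
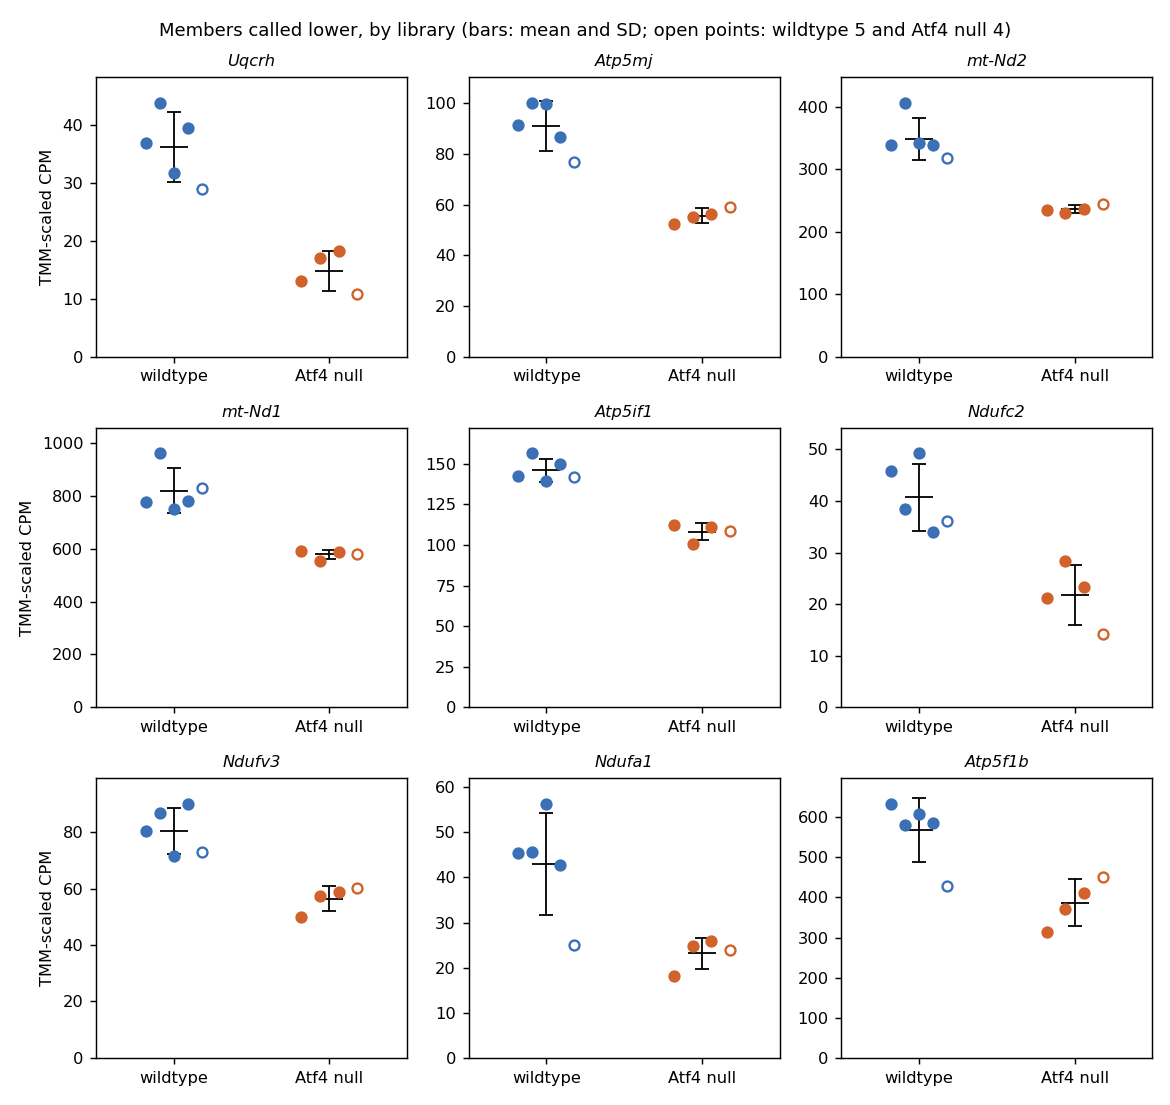
TMM-scaled CPM (vertical axes, from 0) of the 9 members called lower in each library, with mean and SD; open points mark wildtype library 5 and *Atf4* null library 4. The groups are separate for 7 of the 9 genes and overlap for *Atp5f1b* and *Ndufa1*, where wildtype library 5 is at 429 and 25.1 CPM.

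The assembly factors of complex I, which build the complex without being part of it, did not move in 1 direction. Among *Ndufaf1* to *Ndufaf8*, 4 had a lower and 4 a higher fitted level, the median log2 fold change was -0.03, and none was called by edgeR, DESeq2 or the exact test (1 at an unadjusted p below 0.05). That gene, *Ndufaf4*, was at 12.6, 15.1, 11.1, 11.7 and 12.1 CPM in wildtype and at 19.3, 15.4, 17.9 and 23.6 CPM in null libraries. All null values were above the wildtype values. Its log2 fold change was 0.61 ± 0.21 (adjusted p = 0.12, edgeR), and with scaling by library size it was called (0.72, adjusted p = 0.049).

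Complex II, succinate dehydrogenase, also works in the citric acid cycle and showed no called change. *Sdha*, for the flavoprotein, had 141 ± 18.2 CPM in wildtype and 136 ± 9.66 CPM in null libraries, with a log2 fold change of -0.05 (95% interval -0.31 to 0.21). *Sdhb*, for the iron-sulfur protein, had 85.6 ± 20.7 and 98.2 ± 21.4 CPM (0.20, interval -0.22 to 0.62). The membrane anchor genes *Sdhc* and *Sdhd* had log2 fold changes of -0.04 (interval -0.41 to 0.33) and -0.15 (interval -0.63 to 0.34), and the signs of *Sdha* and *Sdhc* turned with scaling by library size. None of the 4 had an unadjusted p below 0.05 or was called by DESeq2 or the exact test.

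Complex IV, cytochrome c oxidase, had 10 of 13 tested nuclear genes with a lower fitted level and none called by edgeR (4 at an unadjusted p below 0.05; DESeq2 called 1 and the exact test none). *Cox4i1*, for the largest nuclear subunit, was at 133, 125, 125.5, 138 and 105 CPM in wildtype and at 70.8, 97.4, 93.8 and 107 CPM in null libraries. Wildtype library 5 was just below null library 4. Its log2 fold change was -0.44 ± 0.13 (adjusted p = 0.077, edgeR), and it was called without wildtype library 5 or without null library 4, with adjusted p down to 0.032.

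*Cox6c* had the highest level per transcript length among the nuclear genes of the complex, 294 CPM per kilobase in wildtype and 216 in null. Its log2 fold change was -0.44 ± 0.15 (adjusted p = 0.11, edgeR), and it was called without wildtype library 5 (-0.53, adjusted p = 0.018) and with the replicate block (adjusted p = 0.032). *Cox7b* was at 65.1 to 82.4 CPM in wildtype and at 41.8, 41.6, 35.6 and 73.8 CPM in null libraries, so that null library 4 alone reached the wildtype range. Without null library 4, *Cox7b* was called at an adjusted p of 0.0036.

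Several complex IV subunits exist as isoforms for particular tissues, and the lens used the general forms. *Cox4i1* was at 160 CPM per kilobase in wildtype against 1.90 for *Cox4i2*, *Cox6b1* at 35.8 against 3.20 for *Cox6b2*, and *Cox6a1* at 97.6 against 1.01 for *Cox6a2*. *Cox7a2*, *Cox7b* and *Cox8a* were at 21.5, 70.3 and 115 CPM per kilobase. *Cox7a2l*, counted with complex IV by its name, was at 28.3 CPM per kilobase. The muscle forms *Cox6a2*, *Cox7a1* and *Cox8b*, the testis forms *Cox7b2* and *Cox8c*, and the annotated coding gene *Cox5b-ps* had too few reads to test.

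*Cox6a2* had 0, 8, 6, 0 and 16 reads in wildtype and 0, 0, 6 and 0 reads in null libraries. All 7 reads of *Cox8b* came from wildtype library 5, the library with the muscle transcripts, and *Cox8c* had no read in any library. Among the tested isoforms of low level, *Cox4i2* and *Cox6b2* had log2 fold changes of -0.28 (95% interval -2.63 to 2.06) and 0.34 (-1.18 to 1.85). *Ndufa4*, kept with complex I by its name in the counts and sums here, had 16.1 ± 4.54 CPM in wildtype and 13.9 ± 4.86 CPM in null libraries. Its paralog *Ndufa4l2* was at 4.18 ± 1.82 and 4.28 ± 1.71 CPM, and 75.2% of its exon bases are shared with other counted genes.

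The 13 protein genes of the mitochondrial DNA need a caution before their values, because part of the molecule has near-identical nuclear copies. A block of chromosome 1 (GRCm39 chr1:24651831-24655265, minus strand) carries 3435 bases of mitochondrial DNA, from position 6394 to 9828, with 1 mismatch. An adjoining block of 1222 bases continues to position 11042 with 0 mismatches. Reads that fit both places equally are not unique, and the deposited counts leave such reads out. The edge of the copy lies inside *mt-Co1*, and these are the same 60 bases on chrM:6374-6433 and on the minus strand of chr1:24655226-24655285, with the 40 copied bases in capitals:

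mt-Co1: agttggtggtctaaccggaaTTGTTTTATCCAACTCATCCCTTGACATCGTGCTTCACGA

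nuclear copy: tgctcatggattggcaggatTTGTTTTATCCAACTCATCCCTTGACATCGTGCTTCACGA

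All 40 bases in capitals are identical, and 10 of the 20 bases before them are. For *mt-Co2*, *mt-Atp8*, *mt-Atp6*, *mt-Co3* and *mt-Nd4l* 100% of 31-base stretches have an exact copy elsewhere, and for *mt-Nd3* 99.1%. Those genes were nearly absent from the counts, with 0 to 26 reads a library for the first 5 and 35 to 107 for *mt-Nd3*, and nothing can be said about their levels. For *mt-Co1* and *mt-Nd4* the share with copies was 63.9% and 63.0%, and for the others it was 17.1% or less.

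Per 1000 copy-free stretches, *mt-Co1* had the highest wildtype level with 4021 CPM, followed by *mt-Cytb* with 1572, *mt-Nd5* with 1400, *mt-Nd4* with 1301, *mt-Nd1* with 884, *mt-Nd2* with 401 and *mt-Nd6* with 382 CPM. *mt-Nd1* and *mt-Nd2*, for membrane subunits of complex I, were called lower. *mt-Nd2* (ENSMUSG00000064345, chrM:3914-4951, plus strand) was at 339, 407, 343, 339 and 318 CPM in wildtype and at 235, 231, 236 and 245 CPM in null libraries. The groups were well separated, and its log2 fold change was -0.56 ± 0.11 (adjusted p = 0.0069, edgeR).

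*mt-Nd1* (ENSMUSG00000064341, chrM:2751-3707, plus strand) was at 777, 961, 751, 781 and 828 CPM in wildtype and 589, 555, 587 and 582 CPM in null libraries, again without overlap. Its log2 fold change was -0.50 ± 0.11 (adjusted p = 0.015, edgeR), and without null library 2 the call was lost (adjusted p = 0.062). Both calls were also lost after correction for GC content or for length, and that of *mt-Nd1* with scaling by library size. In wildtype library 5, *mt-Nd1* and *mt-Nd2* were inside or next to the range of the other wildtype libraries.

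The remaining readable heavy-strand genes did not pass the test with edgeR. *mt-Cytb*, the cytochrome b of complex III, was at 1524 to 1788 CPM in wildtype and at 1205 to 1361 CPM in null libraries (log2 fold change -0.33 ± 0.10, adjusted p = 0.078, edgeR), and DESeq2 called it lower (adjusted p = 0.0070). *mt-Nd4* was at 601 to 744 and 491 to 550 CPM (-0.31 ± 0.11, adjusted p = 0.13). Neither gene's groups overlapped. *mt-Nd5* was at 1936 to 2331 and 1639 to 1980 CPM, with overlap, and *mt-Co1*, the catalytic core of complex IV, was at 2199 ± 107 and 2128 ± 160 CPM, with a log2 fold change of -0.05 (95% interval -0.27 to 0.17) whose sign turned with scaling by library size and with GC or length correction.

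*mt-Nd6* is the protein gene of the light strand, transcribed from the opposite promoter to the other 12. It was at 161, 183, 152, 168 and 201 CPM in wildtype and at 224, 219, 206 and 237 CPM in *Atf4* null libraries. Every null value was above every wildtype value. As the strand setting of the counting was not stated, reads from the opposite strand may be included. The log2 fold change, 0.36 ± 0.11, missed the threshold with edgeR (adjusted p = 0.081), and the exact two-sided permutation p was 0.016. It was called at adjusted p down to 0.021 by DESeq2, after scaling by library size alone, after length correction and without wildtype library 5.

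A ratio within each library does not depend on the scaling between libraries. Relative to *mt-Co1*, *mt-Nd1* was at 0.344 to 0.406 in wildtype and 0.251 to 0.302 in null libraries, and *mt-Nd2* at 0.152 to 0.172 and 0.106 to 0.120. *mt-Cytb* was at 0.717 to 0.755 and 0.573 to 0.660, *mt-Nd4* at 0.276 to 0.325 and 0.237 to 0.258, and *mt-Nd5* at 0.923 to 0.985 and 0.827 to 0.865. All 5 ratios were lower in every null library than in every wildtype library. The ratio of *mt-Nd6* to *mt-Co1* was higher in every null library, at 0.0998 to 0.115 against 0.0696 to 0.0958. These ratios show unequal change in the counts of the mitochondrial genes, and they do not show which gene was unchanged. They were not computed after correction for GC content or length.

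**Figure D5:**
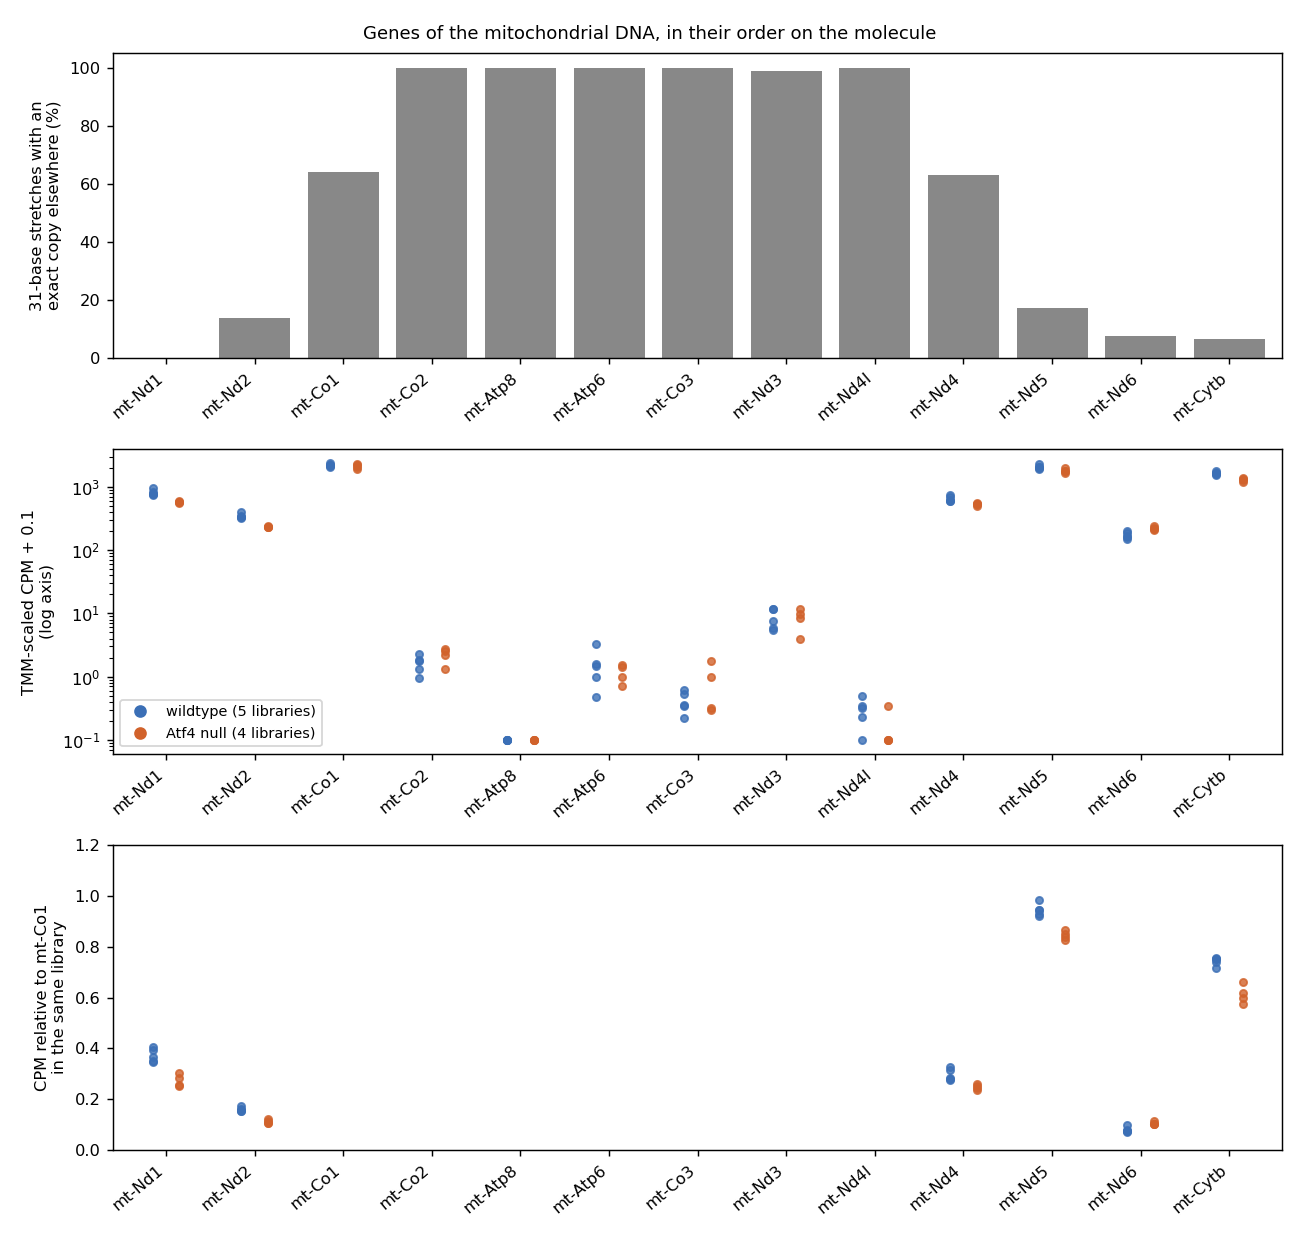
The 13 mitochondrial protein genes in their order on the molecule: share of 31-base stretches with an exact copy elsewhere in the genome (top, %), TMM-scaled CPM plus 0.1 in each library (middle, log axis), and CPM relative to *mt-Co1* in the same library (bottom). The 6 genes with 99.1% to 100% copied stretches have almost no counts, and *mt-Nd6* is the gene whose null points lie above the wildtype points in the bottom panel.

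All 13 genes together gave 7549 to 8791 CPM in wildtype and 6344 to 7259 CPM in null libraries, without overlap, and the null mean was 85.9% of the wildtype mean. As a share of all gene counts, without the TMM factors, the same genes took 0.698% to 0.833% in wildtype and 0.670% to 0.732% in null libraries, which overlap. The nuclear subunits of complex V, whose TMM-scaled sums overlapped, did not overlap on that scale, at 0.176% to 0.203% against 0.164% to 0.169%. The ratio of mitochondrial to nuclear subunit sums was 1.59 ± 0.19 in wildtype and 1.63 ± 0.09 in null libraries, with overlap. Reads from the copied stretches are missing from the mitochondrial sum, so this ratio compares counted reads and not full transcript levels. The mitochondrial ribosomal RNAs *mt-Rnr1* and *mt-Rnr2* had log2 fold changes of -0.17 and -0.17 (adjusted p = 0.38 and 0.35, edgeR), at 13945 to 15740 and 37337 to 41810 CPM in wildtype and 12582 to 13801 and 33212 to 37120 CPM in null libraries, without overlap.

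Promoter sequence was available for 77 of the 98 nuclear members, as the RefSeq start sites of GRCm38.p6 with 250 bases before and 50 after. Both strands were searched for exact letters of 4 elements. The nuclear respiratory factor 1 core CGCATGCG was in 11 of the 77 members (14.3%), against 2.07% of all 27025 genes with such a window. The ETS element CCGGAAG, which GABP binds, was in 18 (23.4%), against 9.93% of all genes. The cyclic AMP response element TGACGTCA was in 4 (5.19%), against 2.03%, and the amino acid response element TGATGCAA, read by ATF4 dimers, in 0, against 1.03%.

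Of the 7 nuclear members called lower, 6 had a promoter window, and *Uqcrh* was the one with a match, to the ETS element. Its 250 bases before the start are shown with the match in capitals (GRCm38.p6 chr4:116075071-116075320, minus strand), followed by the same stretch of 1 start site of *Atp5pf* (GRCm38.p6 chr16:84834977-84835226, minus strand). *Atp5pf* was chosen after its values were seen, as a lower member that holds both the respiratory factor core and the ETS element, and the capitals mark these in that order:

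Uqcrh: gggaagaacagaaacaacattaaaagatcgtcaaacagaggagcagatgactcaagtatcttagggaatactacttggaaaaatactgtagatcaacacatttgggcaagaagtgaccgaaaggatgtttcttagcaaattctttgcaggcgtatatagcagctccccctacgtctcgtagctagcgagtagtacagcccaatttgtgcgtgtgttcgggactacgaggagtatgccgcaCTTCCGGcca

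Atp5pf: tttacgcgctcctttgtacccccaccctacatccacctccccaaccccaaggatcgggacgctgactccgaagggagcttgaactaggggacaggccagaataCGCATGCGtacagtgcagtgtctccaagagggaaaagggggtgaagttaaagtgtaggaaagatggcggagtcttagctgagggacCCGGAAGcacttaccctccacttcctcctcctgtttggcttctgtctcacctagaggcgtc

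*Atp5pf*, for a subunit of the peripheral stalk, was at 112, 111, 142, 109 and 109 CPM in wildtype and 85.5, 71.2, 100.6 and 95.8 CPM in null libraries, all lower (log2 fold change -0.40 ± 0.13, adjusted p = 0.10, edgeR). A match is a string of letters and was not tested for binding.

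Genes that work beside the machinery were counted in the same fit. Of 22 genes for cytochrome c, cytochrome c1 (*Cyc1*), ubiquinone synthesis and other dehydrogenases that feed the chain, 11 had a lower and 11 a higher fitted level. None was called by edgeR, DESeq2 or the exact test (3 at an unadjusted p below 0.05). Of 11 further complex I assembly genes 3 were lower and 8 higher, with none called by those tools and 1 at an unadjusted p below 0.05. Of 40 assembly genes of complexes II to V, 22 were lower and 18 higher, and 1 fell. This was *Cox20*, a chaperone of the second oxidase subunit, at 15.3, 23.5, 21.7, 18.9 and 13.4 CPM in wildtype and 6.88, 7.56, 7.46 and 11.1 CPM in null libraries. Its groups did not overlap (log2 fold change -1.17 ± 0.26, adjusted p = 0.017, edgeR).

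A further list holds genes that copy, transcribe and process mitochondrial DNA. Of 31 tested, 7 had a lower and 24 a higher fitted level, with a median log2 fold change of 0.17 and none called by edgeR (6 higher and 2 lower at an unadjusted p below 0.05; DESeq2 called 2 higher and the exact test 1). Their summed level was 571 to 664 CPM in wildtype and 680 to 808 CPM in null libraries, without overlap.

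Among 18 nuclear regulators of mitochondrial genes, 8 were lower and 10 higher, and *Ppargc1b*, a coactivator of mitochondrial biogenesis, fell. At an unadjusted p below 0.05, 4 were higher and 1 lower, and DESeq2 called 2 higher and 1 lower. *Ppargc1b* was at 20.2, 16.3, 13.5, 22.0 and 22.4 CPM in wildtype and 6.18, 8.40, 10.8 and 6.12 CPM in null libraries. The groups did not overlap (log2 fold change -1.26 ± 0.26, adjusted p = 0.012, edgeR).

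Of 10 tested genes for ATP export, uncoupling and outer membrane channels, 7 were lower, 3 higher and 1 fell. Their summed level was 812 to 942 CPM in wildtype and 665 to 761 CPM in null libraries, without overlap. *Slc25a4*, a carrier that exchanges ATP for ADP across the inner membrane, was at 360, 355, 373, 364 and 313 CPM in wildtype. It was at 217, 220, 258 and 235 CPM in null libraries, without overlap (log2 fold change -0.60 ± 0.11, adjusted p = 0.0047, edgeR). Retina and neuron genes had higher fitted levels in the null lens (14 of 14, 4 called). They summed to 372 to 1193 CPM in null libraries, overlapping 270 to 392 CPM in wildtype. Without wildtype library 5 the wildtype range was 270 to 366 CPM, with no overlap. Lens epithelium genes mostly had lower fitted levels (10 of 12), with 6 called lower and 1, the cyclin gene *Ccnd1*, higher. The part of these other cell types in the results above was not tested.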

How the data were processed

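RNA from single lens pairs was made into stranded total RNA libraries (SMARTer Stranded Pico). Per the study's methods and the processing notes, the authors trimmed reads with Trim Galore, removed reads that matched 45S ribosomal RNA, aligned with HISAT2 to GRCm39 and counted genes with HTSeq on Ensembl release 104. The deposited values are raw counts of reads per gene for each of 9 libraries. Reads not assigned to a gene (44.6% to 47.7% of the reads listed, of which non-unique alignments were 5.03% to 5.74% of all) were left out of library sizes. The strand setting is not given in the sources used here. Titles of wildtype libraries and their count files carry different wildtype numbers, so the numbering of wildtype libraries is uncertain while genotype is not.

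The counts were filtered with filterByExpr, scaled with TMM and tested with edgeR 4.0.16 (R 4.3.3) by the quasi-likelihood F test across 14903 genes, with Benjamini-Hochberg adjustment at 0.05. For a single gene, the exact two-sided permutation test ran over the 126 splits of 9 libraries. The scripts were tested on simulated data. TMM-scaled CPM per kilobase used canonical transcripts of GENCODE vM39. Copies were exact 31-base matches elsewhere in GRCm39. The p-values measure the spread between lens pairs.

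The members and gene lists were chosen with earlier results of these data known. Genes named are the 13 mitochondrial genes, all called members, the most abundant and most changed of each complex, the *Sdh* genes, isoform pairs, *Atp5if1* and called genes of each list. Alternatives were DESeq2 1.42.0, the edgeR exact test, other scaling, filters, a robust fit, a replicate block, GC and length correction (loess, span 0.3) and each library left out. Marker lists also covered blood cells (8 of 8 lower, 1 called), vascular endothelium (10 of 10 lower, 1 called), macrophages (3 of 11 lower, 0 called by edgeR, DESeq2 or the exact test, 0 at an unadjusted p below 0.05) and pigment cells (2 of 5 lower, 0 called, likewise 0). Of muscle genes 10 of 10 were lower with 0 called by edgeR (9 at an unadjusted p below 0.05, exact test 3, DESeq2 0). Of connective tissue genes 11 of 12 were lower, and 1 was called, *Pdgfra*, which is also on the lens epithelium list. These fits include wildtype library 5. The muscle sum was 10429 CPM in that library, 88.4 to 129 CPM in the other wildtype libraries and 79.1 to 166 CPM in null libraries. The connective tissue sum was 17210, 1004 to 1262 and 1219 to 1895 CPM in the same order.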

Additional observations from a re-analysis of the deposited data

Results flagged for a closer look

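Among the groups of 4 or 5 libraries examined for each named gene and sum, 9 held 1 library far from the others by Dixon's criterion. Chance gives that in about 1 of 20 groups, or 5.2 of those examined. Wildtype library 5 was low for the summed nuclear subunits (4138 CPM, the others 5098 to 5418), for nuclear complex III (409 CPM, the others 532 to 569), for nuclear complex IV (528 CPM, the others 658 to 704) and for *Atp5f1b* (429 CPM, the others 581 to 634). It is the library with muscle and connective tissue transcripts and the low fiber sum. Wildtype library 2 was high for the mitochondrial subunits (8791 CPM, the others 7549 to 7864), for mitochondrial complex I (4632 CPM, the others 3896 to 3983) and for *mt-Nd2* (407 CPM, the others 318 to 343). *Ndufs6* was high in wildtype library 3 (16.1 CPM, the others 13.1 to 13.6), and *Cox7b* in *Atf4* null library 4 (73.8 CPM, the others 35.6 to 41.8).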

How the results depend on the processing

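*Uqcrh* and *Atp5mj* were called lower in all 19 alternatives, *mt-Nd2* in 17, *mt-Nd1* in 15, *Ndufc2* in 14, *Atp5f1b*, *Atp5if1* and *Ndufv3* in 10 and *Ndufa1* in 9. The count of members called lower, 9, was 13 with DESeq2, 5 with scaling by library size, 3 after GC correction and 2 after length correction, and it ranged from 4 (without *Atf4* null library 2 or 3) to 14 (without wildtype library 5) with 1 library left out. The count called higher, 0, was 1 with DESeq2, 2 with library size and 1 after length correction, and ranged from 0 to 1 (without wildtype library 5). Nuclear subunits called, 6, were 3 after GC and 2 after length correction, and 2 to 11 with 1 library left out. Mitochondrial subunits called in either direction, 2, were 4 with DESeq2 (3 lower, and *mt-Nd6* higher), 0 after GC correction and 1 after length correction (*mt-Nd6*, higher), and 1 to 3 with 1 library left out (the 3, without wildtype library 5, include *mt-Nd6*). The causes were not tested.

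Ratios of summed levels, *Atf4* null to wildtype, moved beyond the spread between libraries for mitochondrial complex I (0.826 to 0.898 with library size and 0.898 after GC correction), all mitochondrial subunits (0.859 to 0.934 with library size, 0.923 after GC and 0.920 after length correction) and nuclear complex IV (0.814 to 0.949 after length correction). Scaling by library size moved the median of all genes to 0.125 (log2), with 1229 genes called, 790 of them higher, against 880 and 333. Some members that were not called changed sign. With library size, *Cox6a1* was 0.078, *mt-Co1* 0.071, *Sdha* 0.075 and *Sdhc* 0.089. After GC correction *mt-Co1* was 0.038, *Ndufa4l2* -0.010 and *Sdhc* 0.003. After length correction *Cox6a1* was 0.20, *Cox8a* 0.050, *mt-Co1* 0.024 and *Ndufa4* 0.037. Without a filter *mt-Nd3* was -0.000, and with at least 10 counts in every library -0.008. With 1 library left out, *Cox4i2* ranged from -0.82 to 0.41, *Cox6a1* from -0.18 to 0.054, *Cox6b2* from -0.31 to 0.61, *mt-Atp6* from -0.71 to 0.029, *mt-Nd3* from -0.20 to 0.24, *Ndufa4l2* from -0.18 to 0.21, *Sdhc* from -0.16 to 0.022 and *Uqcr10* from -0.23 to 0.21.

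The replicate numbers do not pair the samples (correlations of same-numbered libraries -0.131, -0.019, -0.023 and 0.008). A fit with the replicate block called 852 genes and 9 members lower, losing *Atp5if1* and gaining *Cox6c*, and gave *Cox4i2* 0.17, *Sdhc* 0.007 and *Uqcr10* -0.14. Depth limits genes under about 10 CPM, and the 6 mitochondrial genes with 99.1% to 100% copied stretches are not readable here.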
